A study of Homo sapiens with 9 samples.

Results

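Small nucleolar RNAs (snoRNAs), the related small Cajal body RNAs (scaRNAs) and the genes named as snoRNA hosts were followed in total RNA of HAP1 cells without and with MATR3, which encodes matrin 3, a protein of the nuclear matrix that binds RNA and DNA. The members were the rows whose symbol began with SNORD, SNORA or SCARNA and a number, the numbered SNHG genes other than one that lies at the MATR3 locus, and GAS5. These were 287 of 22114 rows, made up of 134 box C/D snoRNAs, 113 box H/ACA snoRNAs, 22 scaRNAs and 18 host genes. After a filter on low counts 238 could be tested, namely 116 box C/D snoRNAs, 89 box H/ACA snoRNAs, 16 scaRNAs and 17 host genes. The 49 untested members held 37 to 101 counts over all 9 libraries and are not described further, apart from the host gene SNHG18. HAP1 cells are near-haploid and descend from KBM-7, a line of chronic myeloid leukaemia. The knockout (KO) cells were clone 1 (n = 2 libraries) and clone 5 (n = 2), and the wild-type (WT) cells were clone 1 (n = 3) and clone 7 (n = 2) from different batches of the supplier's control cells. Each KO line is 1 clone, and the labels tie no KO clone to a WT clone. Nothing in the labels says that replicates of a clone were separate cultures, so p-values rest on the spread between libraries alone, and that spread may be technical.

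Box C/D snoRNAs guide the methylation of ribose in ribosomal and spliceosomal RNA, and box H/ACA snoRNAs guide the change of uridine to pseudouridine. Their boxes are short sequences bound by a set of core proteins around fibrillarin or around dyskerin. Most human snoRNAs are cut from introns of a host gene after splicing, while a few such as U3 (SNORD3A and its copies), U8 (SNORD118) and U13 (SNORD13) have promoters of their own. U3 and U8 are needed for cutting the ribosomal RNA precursor. scaRNAs carry the same boxes but reside in Cajal bodies, nuclear bodies in which spliceosomal RNAs are modified. Many SNHG transcripts and GAS5 are regarded as noncoding and are broken down in the cytoplasm by nonsense-mediated decay once their introns have released the snoRNAs.

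The snoRNAs on which the comparisons below turn are shown here as RNA-sense DNA letters from hg38, with positions from GENCODE 44. In box C/D snoRNAs the capitals mark box C (TGATGA, looked for in the first 25 bases) and box D (CTGA, in the last 15). In box H/ACA snoRNAs they mark the candidate H box (ANANNA) nearest to the middle, within 15 bases of it, and ACA where it stands in the last 8 bases, and only the ACA is marked in the scaRNA. SNORD100 (chr6:132816802-132816877, plus strand), SNORD101 (chr6:132815307-132815379, plus strand) and SNORA33 (chr6:132817219-132817348, plus strand) lie in introns of the ribosomal protein gene RPS12 and were higher in KO cells.
SNORD100: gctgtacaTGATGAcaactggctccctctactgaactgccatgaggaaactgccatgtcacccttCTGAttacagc
SNORD101: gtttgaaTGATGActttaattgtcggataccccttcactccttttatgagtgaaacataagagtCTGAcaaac
SNORA33: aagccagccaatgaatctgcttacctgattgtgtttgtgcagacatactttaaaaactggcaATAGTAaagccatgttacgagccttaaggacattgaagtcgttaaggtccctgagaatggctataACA
SNORA29 (chr6:159785594-159785733, minus strand), inside the chaperonin gene TCP1, and SCARNA21 (chr17:7906122-7906260, plus strand), in an intron of the chromatin remodeller gene CHD3, were also higher.
SNORA29: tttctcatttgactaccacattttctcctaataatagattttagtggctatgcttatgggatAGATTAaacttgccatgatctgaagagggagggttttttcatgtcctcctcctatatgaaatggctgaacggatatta
SCARNA21: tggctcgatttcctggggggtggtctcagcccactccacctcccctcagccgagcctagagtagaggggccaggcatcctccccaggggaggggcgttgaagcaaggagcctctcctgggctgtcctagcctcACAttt
SNORA13 (chr5:112161485-112161617, plus strand), inside the noncoding gene EPB41L4A-AS1, and SNORD12B (chr20:49280319-49280409, plus strand), inside the noncoding gene ZFAS1, were lower.
SNORA13: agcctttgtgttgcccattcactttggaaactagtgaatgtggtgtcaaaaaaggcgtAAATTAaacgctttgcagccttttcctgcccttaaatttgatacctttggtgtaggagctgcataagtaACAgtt
SNORD12B: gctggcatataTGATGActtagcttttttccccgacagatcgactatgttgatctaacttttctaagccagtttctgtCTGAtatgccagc
SNORA63 (chr3:186787300-186787431, plus strand), inside EIF4A2, did not pass the test between genotypes and is shown because it was among the members that varied most between libraries of one clone.
SNORA63: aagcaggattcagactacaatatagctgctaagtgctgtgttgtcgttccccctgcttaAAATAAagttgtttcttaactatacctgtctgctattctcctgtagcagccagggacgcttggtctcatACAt

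These exact letters do not define the classes on their own. Box C was found in 80 of 134 box C/D snoRNAs (59.7%) and box D in 118 (88.1%), against 0 and 4 of 112 box H/ACA snoRNAs with a sequence. ACA stood in the last 8 bases of 101 of 112 box H/ACA snoRNAs (90.2%), against 13 of 134 box C/D snoRNAs (9.70%). SNORA29 holds no ACA in that window. Only the sense strand was searched, and the motifs do not overlap each other where printed.

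The 9 libraries held 16103754 to 34407309 counts. MATR3 RNA was at 40.8 to 49.3 CPM (counts scaled to library size) in KO and 211 to 224 CPM in WT libraries. Of 16 markers of blood lineages, 5 were rows of the table and 4 were tested, with 1 higher and 1 lower in KO cells. CEBPA, a transcription factor of myeloid cells, was at 21.3 ± 2.0 CPM in KO and 15.7 ± 2.3 CPM in WT libraries (SD, n = 4 and 5; log2 difference 0.45, edgeR adjusted p = 0.013). KIT, a growth factor receptor of blood progenitors, was at 1.15 ± 0.52 CPM in KO and 8.48 ± 0.47 CPM in WT libraries (-2.92, edgeR adjusted p = 3.4e-06). TAL1 (0.16, edgeR adjusted p = 0.22) and LYL1 (-0.67, edgeR adjusted p = 0.096) did not pass the test, and CD14 was below 0.44 CPM throughout. Libraries numbered replicate 1 stood apart from the others of their clone in the longer snoRNAs, as described further on. For the called members, log2 differences within these libraries and within the others are also given there. In bulk RNA, fewer cells of a type and less RNA per cell cannot be told apart.

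Between KO and WT cells few of these RNAs were called different. Of the 238 tested, 7 were higher and 4 lower in KO cells by edgeR's quasi-likelihood test, with Benjamini-Hochberg adjusted p below 0.05 over all genes and repeats. This is 4.62%, where the same test called 22.1% of the 18829 genes and repeats tested, 10.8% higher and 11.3% lower. By class, 2 box C/D snoRNAs were higher and 1 lower (2.59% of 116), 2 box H/ACA snoRNAs higher and 1 lower (3.37% of 89), 3 scaRNAs higher and 0 lower (18.8% of 16), and 0 host genes higher and 2 lower (11.8% of 17). At an unadjusted p below 0.05 by edgeR, 5 scaRNAs were higher and 0 lower, and 0 host genes were higher and 3 lower. Of the 18829 features 3207 were higher and 3242 lower at that threshold. DESeq2 also called 0 scaRNAs lower and 0 host genes higher.

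The snoRNAs and scaRNAs had larger errors at the median than all features together. The median standard error (SE) of the log2 difference was 0.205 in box C/D snoRNAs, 0.277 in box H/ACA snoRNAs, 0.188 in scaRNAs and 0.0901 in host genes, beside 0.109 over all features. Median levels were 1.76, 2.29, 8.74 and 36.8 CPM in that order, beside 15.3 CPM over all features. Among features of 1 to 10 CPM, 6 of 144 members were called, and 23.5% of all features in that range. At 10 CPM or more these were 4 of 43 members and 23.0% of all features, and under 1 CPM 1 of 51 members and 15.3% of all features. The median log2 difference, KO over WT, was -0.03 in box C/D snoRNAs, -0.04 in box H/ACA snoRNAs, 0.22 in scaRNAs, -0.02 in host genes and -0.01 over all features. These medians rest on single libraries. The box H/ACA median ran from -0.25 without KO clone 5 replicate 1 to 0.21 without WT clone 7 replicate 1, and was also positive without KO clone 1 replicate 2 (0.13), KO clone 5 replicate 2 (0.11) or WT clone 1 replicate 1 (0.04). The scaRNA median stayed positive but was 0.06 without KO clone 1 replicate 1, 0.11 without KO clone 5 replicate 1 and 0.14 without WT clone 1 replicate 2. Without WT clone 7 replicate 1 the medians of box C/D snoRNAs and host genes were both 0.03, and without KO clone 1 replicate 2 that of host genes was 0.02. In 5 members all 4 KO libraries were above all 5 WT libraries (10.9% of all features), and in 3 all KO libraries were below (11.3%). Of these 3, SNORD86 did not pass the test (-0.24, edgeR adjusted p = 0.079) and was named after its value was seen.

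**Figure D1:**
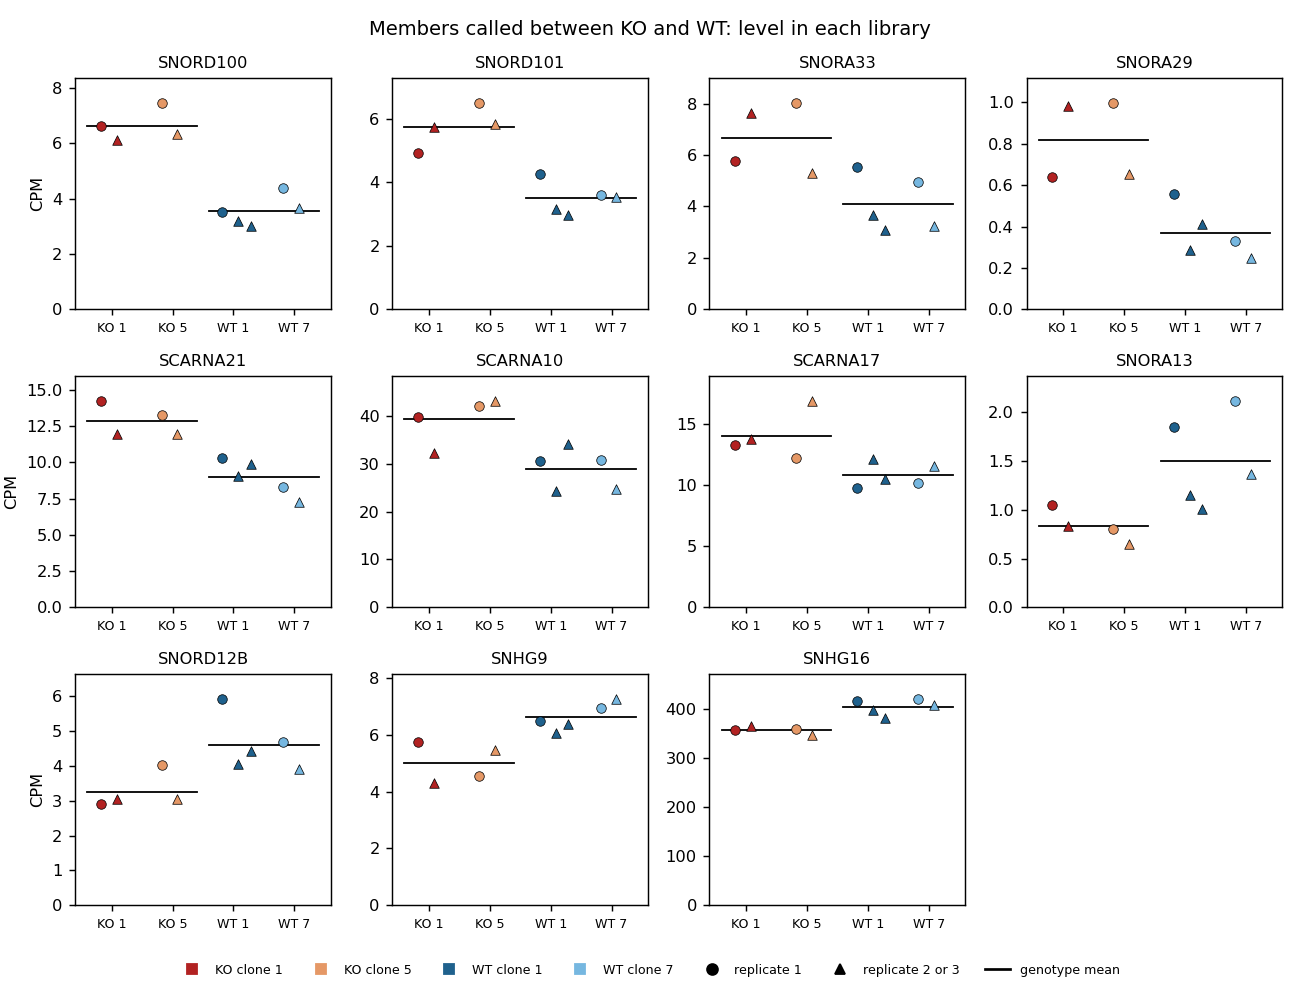
CPM of the 11 members called between KO and WT cells in each library (y axes from 0; x axes, clones; circles, replicate 1; triangles, replicates 2 and 3; lines, genotype means). KO libraries sit above WT libraries with no overlap for SNORD100, SNORD101, SNORA29, SCARNA21 and SCARNA17, and below them with no overlap for SNHG9 and SNHG16.

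The 4 snoRNAs that rose all lie on the distal long arm of chromosome 6. Values below are in the order KO clone 1 replicates 1 and 2, KO clone 5 replicates 1 and 2, then WT clone 1 replicates 1, 2 and 3 and WT clone 7 replicates 1 and 2. SNORD100 was at 6.62, 6.12, 7.44 and 6.33 CPM in KO libraries, against 3.52, 3.20, 3.01, 4.40 and 3.66 CPM in WT libraries. Every KO library was above every WT library (log2 difference 0.89, SE 0.13, edgeR adjusted p = 0.00045). The differences of the single KO clones were 0.81 (clone 1) and 0.93 (clone 5). SNORD101 was at 4.94, 5.74, 6.50 and 5.84 CPM in KO libraries, against 4.26, 3.16, 2.98, 3.60 and 3.54 CPM in WT libraries, again with no overlap (0.72, SE 0.14, edgeR adjusted p = 0.0023).

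SNORA33, in another intron of RPS12, overlapped between genotypes. It was at 5.75, 7.62, 8.01 and 5.29 CPM in KO libraries, against 5.55, 3.68, 3.10, 4.96 and 3.23 CPM in WT libraries (log2 difference 0.71, SE 0.20, edgeR adjusted p = 0.022). The KO clone 5 replicate 2 library was below the highest WT library. Leaving out WT clone 1 replicate 3 (edgeR adjusted p = 0.0526), KO clone 5 replicate 1 (0.0690) or KO clone 1 replicate 2 (0.0739) ended the call. SNORA29 was at 0.639, 0.981, 0.996 and 0.654 CPM in KO libraries, against 0.555, 0.287, 0.414, 0.331 and 0.248 CPM in WT libraries. These are low levels, of 11 to 34 counts in KO and 4 to 14 counts in WT libraries, without overlap in CPM (1.17, SE 0.28, edgeR adjusted p = 0.0092). SNORA20, also inside TCP1, was at 0.673 ± 0.41 CPM in KO and 0.389 ± 0.17 CPM in WT libraries and did not pass the test (0.75, SE 0.42, edgeR adjusted p = 0.25).

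Both hosts of these snoRNAs rose. RPS12, a protein of the small ribosomal subunit, was at 832 ± 48.6 CPM in KO and 392 ± 25.2 CPM in WT libraries (log2 difference 1.09, SE 0.07, edgeR adjusted p = 5.1e-07). Like many ribosomal protein genes it has near-identical processed copies in the genome, with which reads may be shared. TCP1, a subunit of the chaperonin that folds actin and tubulin, was at 949 ± 34.1 CPM in KO and 475 ± 47.7 CPM in WT libraries (1.00, SE 0.08, edgeR adjusted p = 2.4e-06). Their neighbours rose too. In 295 windows of 10000000 bases with at least 10 tested genes of 1 CPM or more, members left out, the median log2 difference reached 0.5 in 6 windows, all on chromosome 6 between positions 100000001 and 170000000 (hg38). Among the 225 genes of these windows the median was 0.87 and 84.4% were called higher. The medians of the single KO clones were 0.84 (clone 1) and 0.91 (clone 5). The window from 120000001 lies between them and had a median of 0.48. The 548 genes of the rest of chromosome 6 had a median of 0.03, and all 14775 genes outside the 6 windows one of 0.00, with 23.8% called either way. That value pools windows with medians of -0.48 to 0.48. On chromosome 1 every window from 160000001 to 250000000 had a negative median, of -0.28 to -0.15. Between WT clone 7 and WT clone 1 the median of the 225 genes was 0.05.

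The 5 tested members in those windows were SNORD100, SNORD101, SNORA33, SNORA29 and SNORA20, and 4 of them were called. Outside the windows 7 of 233 members were called, 3 higher and 4 lower. Of the other genes of 1 CPM or more, 84.4% were called higher inside the windows and 23.8% either way outside. No file used here holds DNA copy number. A change that both KO clones carry along this stretch and the loss of MATR3 cannot be told apart in these samples.

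Outside chromosome 6 the members that rose were scaRNAs. SCARNA21 was at 14.2, 11.9, 13.3 and 11.9 CPM in KO libraries, against 10.3, 9.09, 9.87, 8.30 and 7.26 CPM in WT libraries, with no overlap (log2 difference 0.52, SE 0.11, edgeR adjusted p = 0.0057). Its host CHD3 was at 353 ± 15.7 CPM in KO and 352 ± 38.1 CPM in WT libraries (0.00, SE 0.08). SCARNA10, in an intron of the condensin gene NCAPD2, was at 39.8, 32.2, 42.1 and 43.1 CPM in KO libraries, against 30.5, 24.3, 34.2, 30.8 and 24.8 CPM in WT libraries. The lowest KO library lay below the highest WT library (0.43, SE 0.11, edgeR adjusted p = 0.017), and NCAPD2 itself differed by 0.04 (SE 0.05). SCARNA17 was at 13.3, 13.8, 12.3 and 16.9 CPM in KO libraries, against 9.81, 12.2, 10.5, 10.2 and 11.6 CPM in WT libraries, without overlap (0.37, SE 0.11, edgeR adjusted p = 0.027). Its entry in GENCODE 44 spans 37095 bases and lies opposite to MYO5B, so its reads need not come from the small RNA alone.

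Of the 13 scaRNAs that did not pass the test, 7 had a positive and 6 a negative log2 difference, KO over WT. SCARNA2, the most abundant one, was at 221 ± 34.0 CPM in KO and 179 ± 22.8 CPM in WT libraries (log2 difference 0.31, SE 0.11, edgeR adjusted p = 0.075). SCARNA12 (0.26), SCARNA13 (0.25) and SCARNA5 (0.20) had adjusted p of 0.25, 0.43 and 0.38 by edgeR. With replicate number as a block 5 scaRNAs were called (20.0% of all features), the 3 above with SCARNA13 (0.29, edgeR adjusted p = 0.027) and SCARNA6 (0.45, edgeR adjusted p = 0.018). SCARNA6 was named after its value was seen. Summed over the 16 tested scaRNAs the level was 406 ± 57.1 CPM in KO and 328 ± 25.2 CPM in WT libraries, with 1 KO library at 322 CPM within the WT range of 294 to 355 CPM. The call of SCARNA10 was lost without KO clone 5 replicate 1 (edgeR adjusted p = 0.0501) or replicate 2 (0.0576). For SCARNA17, leaving out KO clone 5 replicate 2 (edgeR adjusted p = 0.0839), WT clone 1 replicate 3 (0.0584), WT clone 7 replicate 1 (0.0572) or KO clone 1 replicate 2 (0.0553) did so. Without KO clone 5 replicate 2, 1 scaRNA was called.

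Each class of snoRNA held 1 member that fell, near the threshold. SNORD12B, which guides a ribose methylation of the large ribosomal RNA, was at 2.90, 3.06, 4.03 and 3.05 CPM in KO libraries, against 5.92, 4.07, 4.43, 4.69 and 3.91 CPM in WT libraries. The highest KO library lay above the lowest WT library (log2 difference -0.49, SE 0.16, edgeR adjusted p = 0.043). With the replicate block the adjusted p by edgeR was 0.054. The other 2 snoRNAs of its family, SNORD12 (-0.04) and SNORD12C (-0.11), had adjusted p of 0.88 and 0.70 by edgeR, and their host ZFAS1 was at 52.4 ± 2.25 CPM in KO and 54.3 ± 2.32 CPM in WT libraries.

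SNORA13 was at 1.05, 0.837, 0.806 and 0.654 CPM in KO libraries, against 1.85, 1.15, 1.00, 2.12 and 1.37 CPM in WT libraries. One KO library overlapped the lowest WT library (log2 difference -0.84, SE 0.27, edgeR adjusted p = 0.042). Its host EPB41L4A-AS1 was at 24.2 ± 1.45 CPM in KO and 28.2 ± 2.83 CPM in WT libraries (-0.22, SE 0.08, edgeR adjusted p = 0.074). Without 1 library the call of SNORA13 was lost for 7 of the 9 libraries, with adjusted p by edgeR of 0.0538 and 0.0944 without KO clone 1 replicate 1 and replicate 2, 0.0891 and 0.114 without KO clone 5 replicate 1 and replicate 2, 0.0677 without WT clone 1 replicate 1, and 0.0935 and 0.0553 without WT clone 7 replicate 1 and replicate 2. For SNORD12B it was lost for 6 of the 9, with 0.116 and 0.111 without KO clone 1 replicate 1 and replicate 2, 0.105 without KO clone 5 replicate 2, 0.0697 and 0.0687 without WT clone 1 replicate 1 and replicate 3, and 0.0728 without WT clone 7 replicate 1.

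Of the host genes, 2 fell in KO cells by small amounts. SNHG16 was at 357, 364, 358 and 347 CPM in KO libraries, against 416, 398, 383, 420 and 409 CPM in WT libraries. No libraries overlapped (log2 difference -0.18, SE 0.05, edgeR adjusted p = 0.027). Its GENCODE 44 entry overlaps ST6GALNAC1 and ST6GALNAC2 on the other strand, and how strand was set in counting was not stated. SNHG9 was at 5.75, 4.30, 4.55 and 5.45 CPM in KO libraries, against 6.48, 6.07, 6.38, 6.94 and 7.26 CPM in WT libraries, also without overlap (-0.41, SE 0.12, edgeR adjusted p = 0.027). With the replicate block SNHG9 had an adjusted p of 0.055 by edgeR and 1 host gene, SNHG16, was called.

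Both calls were lost when some single libraries were left out, and the reason was not tested. Without KO clone 5 replicate 1, or without WT clone 7 replicate 1, 0 host genes were called by edgeR (SNHG9 at adjusted p = 0.0739 and 0.0550, SNHG16 at 0.0576 and 0.0633). SNHG9 was also lost without WT clone 7 replicate 2 (edgeR adjusted p = 0.0601) and without KO clone 1 replicate 2 (0.0892). SNHG16 was also lost when KO clone 5 replicate 2 (edgeR adjusted p = 0.0773) or KO clone 1 replicate 1 (0.0693) was left out. The log2 differences stayed negative in each of these. Over all libraries left out singly they ran from -0.20 to -0.17 for SNHG16 and from -0.48 to -0.34 for SNHG9. Leaving out a whole clone of WT libraries brought other calls. Without WT clone 7 both calls were lost and SNHG1 was called higher (log2 difference 0.26, edgeR adjusted p = 0.026), and without WT clone 1 SNHG12 was called lower beside them (-0.22, edgeR adjusted p = 0.048).

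GAS5, a growth-arrest transcript that holds several box C/D snoRNAs, was at 209, 204, 213 and 187 CPM in KO libraries, against 316, 218, 233, 244 and 212 CPM in WT libraries. It did not pass the test (log2 difference -0.27, SE 0.11, edgeR adjusted p = 0.094), and 1 KO library lay above the lowest WT library. WT clone 1 replicate 1 held the highest value. GAS5 lies on chromosome 1, in the window from 170000001 to 180000000. The 34 genes of that window, members left out, had a median log2 difference of -0.27, with 14 called lower and 1 higher. Whether GAS5 differed from these neighbours was not tested. Among host genes with positive differences, SNHG6 was at 32.1 ± 2.3 CPM in KO and 28.6 ± 2.9 CPM in WT libraries (0.17, edgeR adjusted p = 0.17). SNHG1 was at 213 ± 15 CPM in KO and 192 ± 21 CPM in WT libraries (0.15, edgeR adjusted p = 0.23). SNHG3, the most abundant of these genes, was at 474 ± 103 CPM in KO and 434 ± 67 CPM in WT libraries (0.13, edgeR adjusted p = 0.59).

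The remaining 11 tested host genes had log2 differences of -0.14 to 0.11, KO over WT, and adjusted p of 0.37 or more by edgeR. The lowest were SNHG5 (-0.14) and SNHG12 (-0.12), and then SNHG17 (-0.04), SNHG25 (-0.03), SNHG8 (-0.02), SNHG15 (-0.02) and SNHG11 (0.00). SNHG21 (0.07), SNHG19 (0.08), SNHG7 (0.11) and SNHG20 (0.11) were the highest. In SNHG7 the KO clones differed in sign, with -0.09 in clone 1 and 0.25 in clone 5. SNHG18 was not tested, with 0, 2, 3 and 2 counts in KO libraries and 6, 9, 10, 10 and 5 counts in WT libraries.

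**Figure D2:**
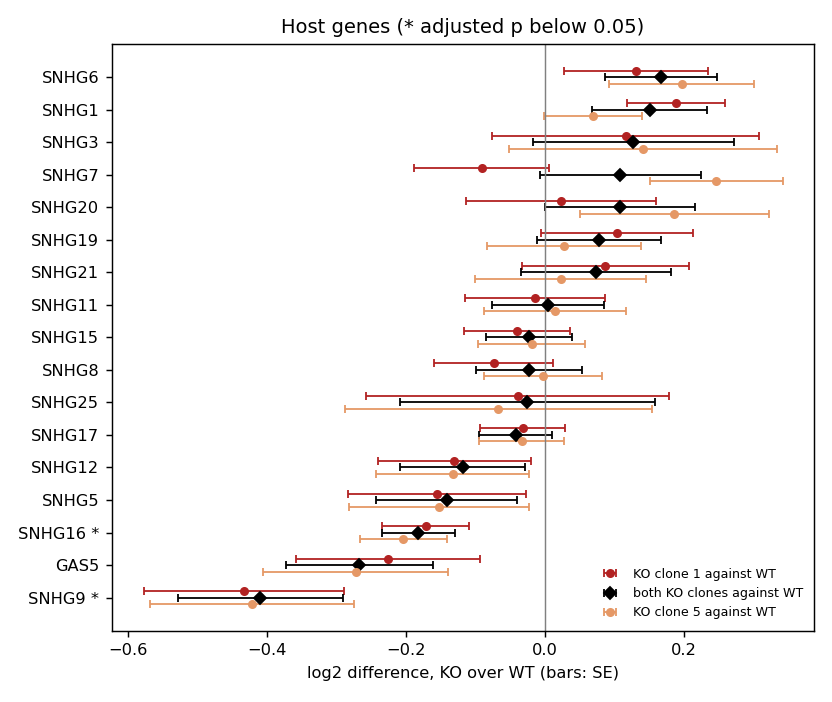
Log2 difference, KO over WT, of the 17 tested host genes (x axis; bars, SE), for KO clone 1, both clones together and KO clone 5. SNHG9 (-0.41) and SNHG16 (-0.18) carry an asterisk for an adjusted p below 0.05 by edgeR, and the other 15 genes lie between -0.27 and 0.17.

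Some of the host genes have a run of C and T at their annotated start site. Messages that begin with a C followed by a run of C and T, known as terminal oligopyrimidine or TOP messages, are translated according to growth signals. A C at the RefSeq start site followed by at least 4 of C or T was found in 4 of 14 host genes with an entry (28.6%), and in 4.07% of 35116 RefSeq promoters of GRCh38. These were SNHG12, SNHG5, SNHG19 and SNHG18. SNHG12 and SNHG5 are printed with 10 bases before the start and 30 from it on (chr1:28581844-28581883 and chr6:85678704-85678743, both minus strand), the run in capitals, beside SNHG16 (chr17:76557754-76557793, plus strand), in which the letter at the start is not a C.
SNHG12: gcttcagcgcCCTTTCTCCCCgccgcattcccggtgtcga
SNHG5: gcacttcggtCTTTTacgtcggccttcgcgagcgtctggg
SNHG16: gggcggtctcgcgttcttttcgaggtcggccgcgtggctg
The share describes annotated start sites on the gene's own strand, and no start site was measured here.

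No snoRNA inside the host genes passed the test. Of 28 tested snoRNAs and scaRNAs in 14 of the host genes, edgeR and DESeq2 called 0, where edgeR called 22.1% of all features, and 0 had an unadjusted p below 0.05 by edgeR. Of the host genes themselves 2 were called, so for most of these snoRNAs there was no called change of the host to compare with. Their log2 differences ran from -0.40 (SNORD50B in SNHG5) to 0.34 (SCARNA16 in SNHG20) with a median of -0.01. In SNHG16, SNORD1A, SNORD1B and SNORD1C had -0.03, 0.14 and 0.01, and in SNHG9, SNORA78 had -0.24 (SE 0.28). The difference between these snoRNAs and their hosts was not tested.

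Over the whole set the members inside RPS12 and TCP1 stood apart from the other pairs. A host on the same strand, the shortest coding or long noncoding gene around the snoRNA, was found for 210 of the 221 tested snoRNAs and scaRNAs, and 206 had a tested host, 119 genes in all. Across these 206 pairs the log2 differences correlated with Pearson's r of 0.562 and Spearman's rho of 0.370, and without RPS12 and TCP1 with 0.303 and 0.321 (201 pairs, 128 with the same sign). Spearman's rho was 0.494 over the 130 pairs in which the snoRNA overlaps an exon of its host and 0.167 over the 76 in which it does not. Pairs share libraries, and 44 of the hosts hold more than 1 of the snoRNAs, so these are descriptions. Where the host was called and had moved by 0.5 or more, which held only for RPS12 and TCP1, 4 of 5 snoRNAs were called, and all 5 had the sign of the host. Where the host was called with a smaller difference, 0 of 27 were called by edgeR, 1 had an unadjusted p below 0.05, DESeq2 called 0, and 16 had the sign of the host. Where the host was not called, 4 of 174 were called, namely SCARNA21, SCARNA10, SNORA13 and SNORD12B. By edgeR 22.1% of all features were called. In the chromosome 6 windows that hold RPS12 and TCP1, 84.4% of the 225 genes were called higher.

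Reads of an unspliced host also fall on an intronic snoRNA, and 130 of the 210 snoRNAs overlap an exon of some transcript of their host, so part of a member's count can be host RNA. SCARNA2 and the noncoding gene annotated around it differed by at most 0.142 CPM in any of the 9 libraries. How much of each count came from the processed small RNA was not measured.

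**Figure D3:**
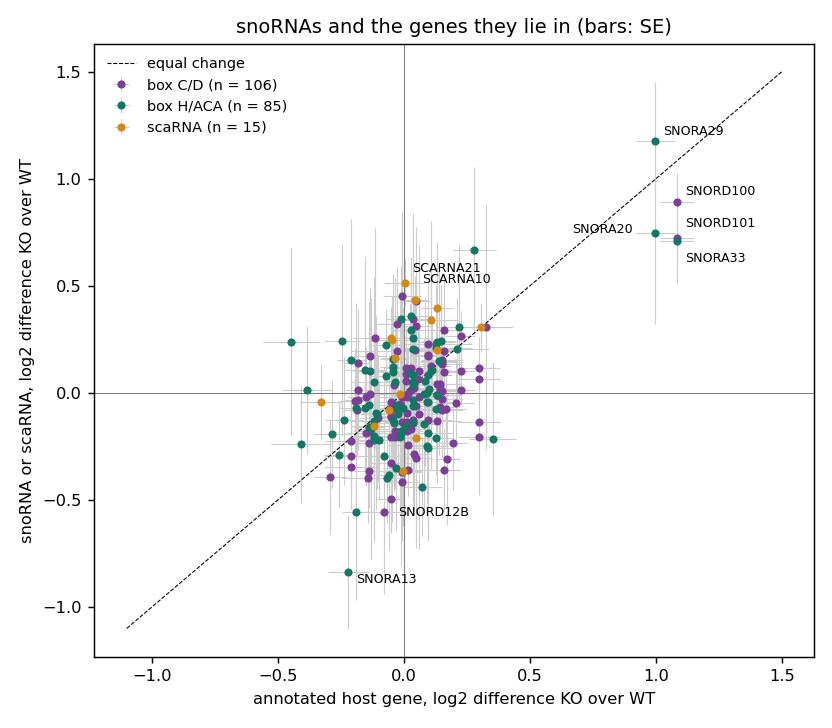
Log2 difference, KO over WT, of each snoRNA or scaRNA (y axis) against that of its annotated host (x axis), 206 pairs with SE bars and the line of equal change. The 5 members inside RPS12 (host 1.09) and TCP1 (host 1.00) lie apart at the upper right, while SCARNA21, SCARNA10, SNORA13 and SNORD12B, at -0.84 to 0.52, have hosts at -0.22 to 0.04.

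Reads on snoRNAs were dominated by few of them. SNORD3A, the U3 RNA, gave 59.3 to 83.6% of the box C/D sum of a library, and SNORA73A and SNORA73B, the U17 RNAs encoded in SNHG3, gave 58.2 to 66.8% of the box H/ACA sum. Per kilobase of annotated length the levels averaged over all libraries were 1946 CPM for SNORD3A, 1605 for SNORA73B, 1043 for SNORA73A, 470 for SCARNA2 and 355 for SNORD49B. These values depend on the annotated lengths, which were 699 bases for SNORD3A, 204 for SNORA73B and 206 for SNORA73A. Lengths of the mature RNAs were not measured here. SNORD3A has near-identical copies (SNORD3B-1, SNORD3B-2 and SNORD3C), and SNORA73A and SNORA73B resemble each other, so the split of reads between copies is uncertain.

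None of these abundant RNAs was called between genotypes. SNORD3A was at 1832, 585, 3137 and 740 CPM in KO libraries, against 1807, 594, 742, 2260 and 545 CPM in WT libraries (log2 difference 0.40, SE 0.53, edgeR adjusted p = 0.65). SNORA73B was at 472, 217, 508 and 220 CPM in KO libraries, against 397, 221, 287, 414 and 210 CPM in WT libraries (0.21, SE 0.29, edgeR adjusted p = 0.67). In both, the high values are those of the libraries numbered replicate 1, in every clone of both genotypes. SNORA73A passed with the replicate block (0.20, edgeR adjusted p = 0.040) and not without it (0.23, edgeR adjusted p = 0.62). SNORD49B, a short box C/D snoRNA, was at 25.7 ± 2.0 CPM in KO and 25.5 ± 1.5 CPM in WT libraries and showed no such split. SNORA74A, annotated inside the SNHG gene left out at the MATR3 locus, stayed a member. It averaged 18.4 CPM over all libraries and was not called (log2 difference 0.11).

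The replicate 1 libraries held more reads of longer snoRNAs in all 4 clones. The box C/D sum was 2308 CPM in KO clone 1 replicate 1 against 945 CPM in its replicate 2, 3752 against 1113 CPM in KO clone 5, 2303 against 951 and 1115 CPM in WT clone 1, and 2899 against 919 CPM in WT clone 7. The ratio of replicate 1 to the other libraries of its clone was 2.23 to 3.37 for box C/D snoRNAs, 1.64 to 2.17 for box H/ACA snoRNAs, 0.995 to 1.40 for scaRNAs and 1.14 to 1.17 for host genes. Without SNORD3A the ratio for box C/D snoRNAs was 1.32 to 1.71. The labels give no date or batch for these numbers.

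**Figure D4:**
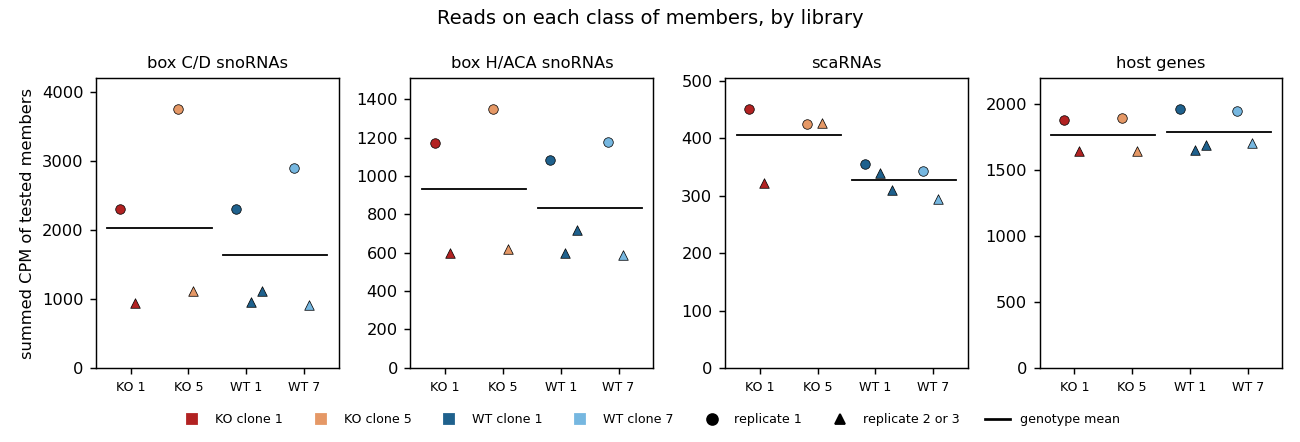
Summed CPM of the tested members of each class in each library (y axes from 0; x axes, clones; circles, replicate 1; triangles, replicates 2 and 3; lines, genotype means). In the box C/D and box H/ACA panels the 4 circles, at 2303 to 3752 and 1084 to 1346 CPM, lie above all triangles, which lie at 919 to 1115 and 590 to 720 CPM.

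Member by member, all 4 replicate 1 libraries were above the other 5 in 17 of 116 box C/D snoRNAs (14.7%), 48 of 89 box H/ACA snoRNAs (53.9%), 6 of 16 scaRNAs (37.5%) and 5 of 17 host genes (29.4%), where this held for 1.25% of all features. They were below the others in 0 members and in 1.03% of all features. The classes differ in length. Pooled over them it held for 5 of 97 snoRNAs and scaRNAs under 100 bases (5.15%), 48 of 95 of 100 to 149 bases (50.5%) and 17 of 28 of 150 bases or more (60.7%). Among box C/D snoRNAs alone it held for 5 of 97 under 100 bases, 7 of 12 of 100 to 149 bases and 5 of 7 of 150 bases or more. Among box H/ACA snoRNAs it held for 38 of 78 of 100 to 149 bases and 9 of 10 of 150 bases or more. The scaRNAs went the other way, with 3 of 5 of 100 to 149 bases and 3 of 11 of 150 bases or more. The libraries were read in paired reads of 100 bases, and the insert lengths were not given in the sources used here.

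High ratios were found in RNAs with their own promoters and in intron-borne ones. Averaged over the clones, the log2 ratio of replicate 1 to the others was 2.45 for SNORD3B-1, 2.38 for SNORD15B, 2.29 for SNORD3C and 1.99 for SNORA63, which were the highest 4. The RNAs with their own promoters SNORD3A, SNORD118 and SNORD13 had 1.80, 1.79 and 1.77. SNORD15B was at 14.3, 3.17, 29.1 and 4.20 CPM in KO libraries, against 22.8, 5.88, 3.55, 26.4 and 5.09 CPM in WT libraries. SNORA63 was at 13.9, 4.76, 23.2 and 4.69 CPM in KO libraries, against 20.2, 5.07, 6.12, 23.3 and 4.65 CPM in WT libraries. Both were split by replicate number and overlapped fully between genotypes, with log2 differences, KO over WT, of -0.02 (SE 0.71) and -0.04 (SE 0.59).

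**Figure D5:**
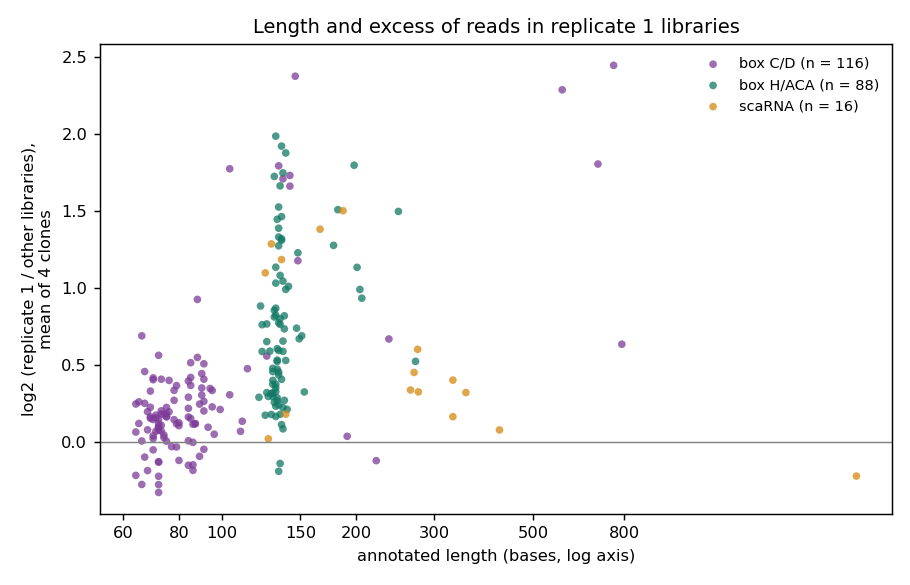
Log2 ratio of the replicate 1 library to the other libraries of its clone, averaged over 4 clones (y axis), against annotated length (x axis, log scale) of 220 tested snoRNAs and scaRNAs. Most points under 100 bases lie near 0 (median 0.15), and those of 100 to 149 bases spread up to 2.38 (median 0.60).

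The host genes did not share this split to the same size. Of the 119 tested hosts, 6 had all replicate 1 libraries above the others, where this held for 1.25% of all features. The highest log2 ratio of a host was 0.47 (SNHG3, the host of SNORA73A and SNORA73B). Of the 206 snoRNAs and scaRNAs with a tested host, 34 had a log2 ratio over 1, and 0 of the hosts did. Other short noncoding RNAs showed it too. Of 27 tested spliceosomal, Y, vault and related RNAs, 10 had all replicate 1 libraries above the others, among them RNY1 (log2 ratio 3.12), RNU1-2 (2.90) and RNU4-2 (2.76). In that list 0 rose and 1 fell between KO and WT cells by edgeR, where 10.8% of all features rose and 11.3% fell. The one that fell was RPPH1, the RNA of ribonuclease P, at 2349 ± 301 CPM in KO and 3194 ± 394 CPM in WT libraries (log2 difference -0.44, SE 0.11, edgeR adjusted p = 0.013). At an unadjusted p below 0.05 by edgeR 1 was higher, RN7SL1, an RNA of the signal recognition particle, named after its value was seen (0.28, edgeR adjusted p = 0.10), and DESeq2 called it.

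Within the replicate 1 libraries alone, 2 KO against 2 WT, 0 members were called by edgeR (3.03% of all features), and 14 had an unadjusted p below 0.05. SNORD100 had a log2 difference of 0.82 (edgeR adjusted p = 0.142) and SNORD101 one of 0.55 (edgeR adjusted p = 0.328) there. Within the other libraries, 2 KO against 3 WT, 3 members were called (13.1% of all features), namely SNORD100 (0.94), SNORD101 (0.86) and SNORA33 (0.98). SCARNA21 had 0.57 and 0.44 in these subsets, SCARNA10 0.42 and 0.42, and SCARNA17 0.35 and 0.43. SNORA33 had 0.39 in the replicate 1 libraries. In the same order SNORA29 had 0.95 and 1.34, SNORD12B -0.60 and -0.43, SNHG16 -0.22 and -0.15, and SNHG9 -0.39 and -0.43. The difference of SNORA13 was -1.11 in the replicate 1 libraries and -0.58 in the others. SCARNA13, with 0.40 and -0.05, changed sign.

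With all libraries edgeR called no member between clones of 1 genotype. Between KO clone 5 and KO clone 1, 0 members were called by edgeR and by DESeq2, and 0.653% of all features were called by edgeR. An unadjusted p below 0.05 by edgeR was found for 1761 of 18829 features and for 1 of 238 members. This member was SNHG7 (log2 difference 0.34, SE 0.11, edgeR adjusted p = 0.38). Between WT clone 7 and WT clone 1, 0 members and 0.722% of all features were called by edgeR. An unadjusted p below 0.05 by edgeR was found there for 3713 of the features and for 9 of the members. DESeq2 called SNHG1 there (0.28, adjusted p = 0.030), and edgeR without WT clone 1 replicate 1 called SNHG12 (0.31) and SNORD22 (1.03). The log2 differences of box C/D snoRNAs ran from -0.72 to 1.30 between the KO clones and from -0.66 to 1.79 between the WT clones, beside -0.56 to 0.89 between genotypes.

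Few of the listed proteins that build snoRNA particles were called. Of the core proteins of box C/D particles (FBL, NOP56, NOP58 and SNU13) 0 of 4 were called by edgeR, with 0 by DESeq2 and 1 at an unadjusted p below 0.05 (NOP56, -0.14), and the median was 0.01. Of the box H/ACA core proteins 1 of 4 was higher, NHP2, at 126 ± 5.7 CPM in KO and 113 ± 3.1 CPM in WT libraries (log2 difference 0.16, SE 0.05, edgeR adjusted p = 0.048; 0.10 with the replicate block), with a median of -0.08. Of 13 assembly factors 0 were higher (1 at an unadjusted p below 0.05) and 1 lower, the nucleolar chaperone NOLC1, at 296 ± 18 CPM in KO and 347 ± 31 CPM in WT libraries (-0.23, SE 0.07, edgeR adjusted p = 0.048), with a median of 0.05. Of 12 genes of debranching, trimming and decay 1 was higher and 0 lower (1 at an unadjusted p below 0.05), PARN, the deadenylase that trims box H/ACA RNAs, at 69.4 ± 3.5 CPM in KO and 58.6 ± 2.5 CPM in WT libraries (0.25, SE 0.06, edgeR adjusted p = 0.0074), with a median of -0.04. DESeq2 gave the same counts for these 4 lists. The median over all features was -0.01 and 22.1% of them were called.

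Of all features edgeR called 22.1%, 10.8% higher and 11.3% lower. Of 7 genes of Cajal bodies and scaRNA particles 0 were higher and 2 lower by edgeR and by DESeq2. In this list 1 was higher at an unadjusted p below 0.05 by edgeR, and the median was -0.17. C12orf45, which also takes part in the assembly of box C/D particles but stands in this list and not among the 13 assembly factors above, was at 32.0 ± 1.9 CPM in KO and 55.2 ± 8.2 CPM in WT libraries (log2 difference -0.79, SE 0.10, edgeR adjusted p = 0.00018). SMN1, whose protein loads spliceosomal RNAs with Sm proteins, was at 0.851 ± 0.24 CPM in KO and 27.0 ± 3.4 CPM in WT libraries (-4.98, SE 0.16, edgeR adjusted p = 5.1e-09). SMN1 has a near-identical copy, SMN2, so the share of reads given to it is uncertain.

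Lists of genes that use or make ribosomal RNA are read beside all features, of which 22.1% were called either way and 11.3% lower. Of 24 proteins of the U3 particle and its early ribosome precursor 0 were higher and 5 lower, with a median of -0.08. They were UTP20, at 96.5 ± 7.4 CPM in KO and 140 ± 16 CPM in WT libraries (log2 difference -0.54, edgeR adjusted p = 0.00087), BMS1 (-0.44), HEATR1 (-0.47), IMP4 (-0.27) and UTP4 (-0.20). Of 16 subunits and factors of RNA polymerase I, 0 were higher and 2 lower, POLR1A (-0.29, edgeR adjusted p = 0.0011) and TWISTNB (-0.25, edgeR adjusted p = 0.027), with a median of 0.03. DESeq2 gave the same counts for both lists. At an unadjusted p below 0.05 by edgeR, 0 genes of either were higher.

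The authors' deposited table of DESeq2 results, KO over WT, held an adjusted p below 0.05 for 12 of the 287 members, 8 higher and 4 lower, and for 20.4% of its rows. Of these, 10 were also called by edgeR above. In the authors' deposited table SCARNA2 (log2 0.30, adjusted p = 0.047) and the low-count SNHG18 (-2.17, adjusted p = 0.024) passed, and SNORA13 (adjusted p = 0.053) did not.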

How the data were processed

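The 9 libraries came from HAP1 total RNA after removal of ribosomal RNA. Per the labels' protocols they were directional, had UMI adaptors and were read in pairs of 100 bases. The authors used STAR 2.5.2a, hg38, TEtoolkit, DESeq and DESeq2 1.22.2, per the submitters' processing notes. Strand setting, annotation release and use of UMIs were not stated there. The deposited counts are whole reads per gene or repeat subfamily. The authors' deposited table of their own comparison holds a log2 fold change, KO over WT, and adjusted p-values. Value columns of no sample numbered 0.

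Genes and repeats were fitted together. edgeR 4.0.16 in R 4.3.3 (limma 3.58.1) kept 18829 of 22114 rows with filterByExpr by genotype (minimum count 10), scaled by TMM and fitted a quasi-likelihood model with genotype alone. A second fit with 4 clone groups gave clone contrasts and each KO clone against WT. Benjamini-Hochberg adjustment ran over all rows of a contrast, with calls below 0.05. CPM are edgeR's scaled counts after TMM, values after ± are SD, and SE belongs to edgeR's log2 difference. Ratios of replicate 1 to other libraries used CPM plus 0.1. Library totals were 16103754 to 34407309 counts. The test was tested on simulated data.

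Members and lists were chosen with earlier results of these data known. Named were all tested host genes, the called members of each class, the 5 most abundant of each class, members leading a clone contrast, their hosts, and up to 4 called genes of each list. The windows along chromosomes and the replicate 1 subsets were added after seeing the data. One further gene list and 1 member's sequence are not reported here. Positions and hosts came from GENCODE 44, in which 286 of 287 members were found, and sequences from hg38, the build of the deposited files. Start-site windows came from RefSeq promoters of GRCh38. Software also included DESeq2 1.42.0, Python 3.11.15, pandas 2.3.3, numpy 2.4.6 and matplotlib 3.10.9.

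Equally numbered libraries of different clones moved together around their clone means (correlation over genes 0.101 to 0.507 in all 12 pairs). These 12 values are not independent. Around the mean of a clone with 2 libraries, the libraries mirror each other. Both numbers then give the same value, such as 0.507 for KO clone 5 with WT clone 7. On these values the numbers were taken to pair the libraries, and replicate number was added as a block in an alternative fit. WT clone 1 replicate 3, the only library of its number, adds nothing to the difference between genotypes in that fit. The labels do not say what a number shares. Other alternatives were DESeq2, RLE scaling, other filters, robust estimation, genes alone, summed clones, and leaving out each library or clone.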

Additional observations from a re-analysis of the deposited data

Results flagged for a closer look

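Among 80 groups of KO or WT libraries of the named members, 3 held a library far from the rest, where chance gives about 1 group in 20. SNORD12B was at 4.03 CPM in its highest KO library, KO clone 5 replicate 1, and the next was at 3.06 CPM. SNORD49B was at 22.71 CPM in its lowest KO library, the same one, and the next was at 26.39 CPM. SNHG25 was at 23.17 CPM in its highest WT library, WT clone 7 replicate 1, and the next was at 15.3 CPM. All 3 are libraries numbered replicate 1, and the part of that number in these values was not tested.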

How the results depend on the processing

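Box C/D snoRNAs called between KO and WT numbered 3, with 2 to 4 when 1 library was left out, 5 with the mean of clones in the four-group fit and 0 in the replicate 1 libraries alone. Box H/ACA snoRNAs numbered 3, with 1 to 3 when 1 library was left out, 1 with the counts of each clone summed, 0 without KO clone 1, 0 without KO clone 5, 0 in the replicate 1 libraries alone and 1 in the others. scaRNAs numbered 3, with 1 to 4 when 1 library was left out, 5 with the replicate block, 0 with summed clones, 1 without KO clone 1, KO clone 5 or WT clone 7, and 0 in the replicate 1 libraries and 0 in the others. Host genes numbered 2, with 0 to 2 when 1 library was left out, 1 with the replicate block, 0 with summed clones, 0 without KO clone 1, 0 without KO clone 5, 1 without WT clone 7, which was SNHG1 (higher, 0.26) and neither of the 2, and 0 in either subset. Members called between WT clone 7 and WT clone 1 numbered 0, with 0 to 2 when 1 library was left out and 1 by DESeq2, and between the KO clones 0 throughout. Summed clones and subsets hold fewer libraries, and with the replicate block WT clone 1 replicate 3 adds nothing to the difference. Over all features 4161 were called, with 4950 in the four-group fit, 1651 with summed clones and 569 in the replicate 1 libraries. The replicate block changed the calls of SNORD12B, SNHG9, SNORA73A, SCARNA13 and SCARNA6 and of no other member named. Over 959 alternatives of 40 named members 867 kept the side of the threshold, 85 lost and 7 gained a call, and 0 changed direction after being called. SNORD100 and SNORD101 lost theirs only in the replicate 1 libraries alone. Elsewhere the cause of a lost call was not tested. The median SE of each snoRNA class was above that over all features, and SE was high also in abundant members split by replicate number, such as SNORD3A (0.53).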
